A study of Pleurotus ostreatus with 4 samples.

Results

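In the transcriptome of the oyster mushroom Pleurotus ostreatus, sequences were numbered as contigs within clusters, and in 37 clusters some contigs were more abundant in primordium than in mycelium while others were less abundant. The contigs described here were chosen by their values. A cluster was taken where, among contigs of at least 3 FPKM (fragment numbers divided by sequence length and library total) in either library, log2(FPKM + 1) was higher in primordium than in mycelium by 1 or more for a contig and lower by 1 or more for another. Such clusters are called opposed clusters below. Members were the contigs of these clusters whose difference was from 1 to below 3 in size and whose mature fruit body value lay within a log2 difference of 1 of primordium. This gave 65 members, 31 higher and 34 lower in primordium, of the 51131 sequences in the table. The members lay in 36 of the 37 opposed clusters, and 22 clusters held members of both directions. Since the mycelium, primordium and mature fruit body libraries chose the members, values in these libraries are given as a description. The young fruit body library was not used in the choice.

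The wild type strain P739 was sampled at 4 stages, as mycelium, as primordium and as young and mature fruit bodies, and each stage had 1 library. The libraries were sequenced on an Illumina HiSeq 2000 from RNA extracted with Trizol, per the labels' protocols. The labels name no treatment or second genotype, so stage is the only labelled difference. With 1 library per stage there was no spread between replicates to set a difference against, and no test between stages could be made. Whole fragments were recovered from the steps of the FPKM values, on denominators between 15048631 fragments in primordium and 15691317 in mature fruit body. The 95% intervals given with folds are exact intervals for these fragments and cover counting error only.

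Mycelium is the thread-like vegetative network of the fungus, and primordia are the first compact bodies that hyphae form before a mushroom expands. In the dikaryotic mycelium from which basidiomycetes usually fruit, cells carry a pair of nuclei of different parentage, so a locus can be transcribed as different alleles. In assemblies made without a genome, contigs are often grouped into a cluster because their sequences are alike. Splice forms of a gene, alleles of a locus and close paralogues can all fall into a cluster of this kind. The identifiers do not say which of these a contig is, and the labels and the file do not say how the clusters were made. None of them carries a gene name, and 0 matched the 11849 genes that RefSeq lists for strain PC9, so no function is given for any contig, and the stage labels could not be checked against marker genes. The way in which fragments were divided between contigs that share sequence is stated in neither. Its part in the opposed values was not tested.

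Opposition within a cluster was uncommon. Of 6568 contigs of at least 3 FPKM, 899 (13.7%) were higher in primordium by a log2 difference of at least 1, and 1580 (24.1%) were lower. Among the 1985 clusters with at least 2 such contigs, 37 (1.86%) were opposed. By contrast, 559 clusters had 2 or more contigs past this difference in a single direction, 203 with higher and 356 with lower contigs, so opposed clusters were 6.21% of the 596 clusters in which 2 or more contigs differed. The share of opposed clusters was 1.35% (20 of 1483) where 2 contigs passed the minimum, 2.89% (10 of 346) where 3 did, and 4.49% (7 of 156) where 4 or more did. Opposed clusters had a median of 5 contigs, from 2 to 41, and the other 1948 clusters had a median of 3, from 2 to 116. A cluster with more contigs has more ways to meet the rule, so the selection favours both differences.

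The 37 opposed clusters held 366 contigs, of which 262 stayed below 3 FPKM in both primordium and mycelium. Of the other 104, 49 were higher and 43 lower in primordium past the log2 difference of 1, and 12 were not past it in either direction. The members were 65 of those 92 contigs. In 25 clusters the opposition rested on exactly 1 higher and 1 lower contig.

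**Figure D1:**
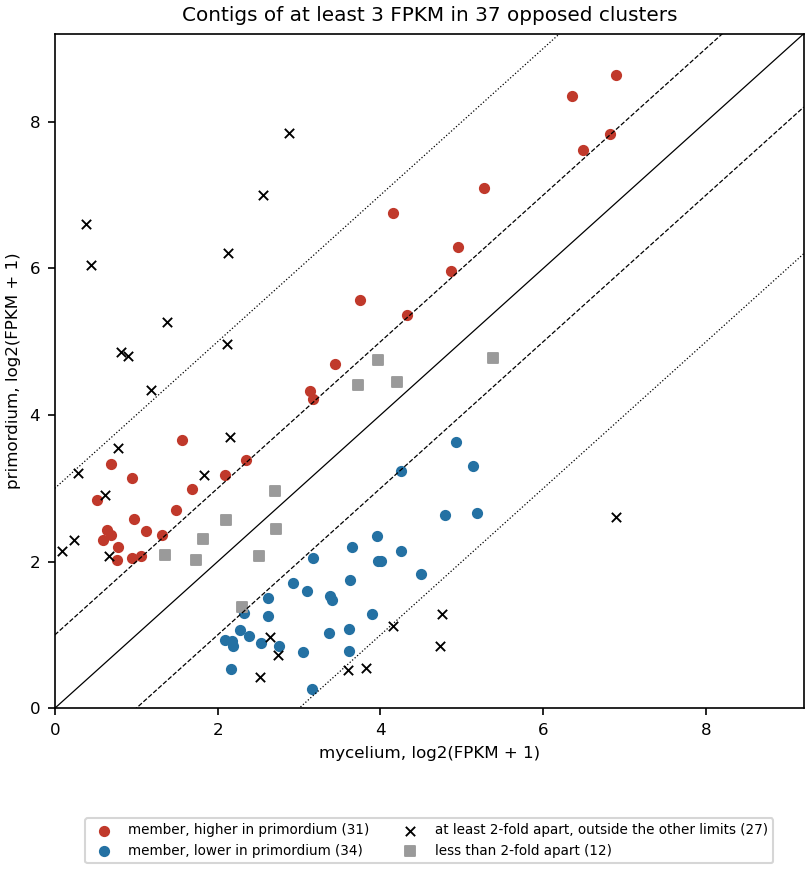
Level in primordium (vertical axis) against level in mycelium (horizontal axis), both as log2(FPKM + 1), for the 104 contigs of at least 3 FPKM in the 37 opposed clusters; the solid line marks equality, the dashed lines a log2 difference of 1 and the dotted lines a difference of 3. The 31 higher and 34 lower members lie between the dashed and dotted lines on either side, and the most abundant members are all among the higher ones.

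The higher members were the more abundant set in the fruiting stages, which the selection favours. A higher member had to reach 3 FPKM in primordium, and a lower member only in mycelium. Their median was 2.23 FPKM in mycelium, 9.05 in primordium, 9.40 in young and 8.65 in mature fruit bodies. In primordium they ranged between 3.07 and 398 FPKM, against 0.430 to 118 FPKM in mycelium. The lower members had medians of 9.39 FPKM in mycelium, 1.81 in primordium, 1.90 in young and 1.85 in mature fruit bodies. They ranged between 0.197 and 11.4 FPKM in primordium, against 3.27 to 35.4 FPKM in mycelium. Together, the higher members took 0.493% of the recovered fragments in primordium, against 0.168% in mycelium. The lower members took 0.0188% in primordium, against 0.0798% in mycelium. The selection fixes both directions. A few contigs held most of the 73147 primordium fragments of the higher members. CL2706.Contig1 had 19933, CL6262.Contig3 11902, CL4923.Contig2 10991 and CL2052.Contig1 7930.

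As ratios of FPKM, the median fold between primordium and mycelium was 3.40 for higher members (2.03 to 14.6) and 4.83 for lower members (2.15 to 40.5). The counting interval of the fold excluded equality for all 65 members. It lay wholly beyond 2-fold for 25 of 31 higher and 30 of 34 lower members. These intervals compare the libraries that chose the members past a log2 difference of 1, so both counts are a description. In the library where the member was scarcer, 17 members rested on fewer than 20 fragments, and the smallest numbers were 5 fragments for a higher and 4 for a lower member. Rescaling by median-of-ratios factors or to the upper quartile turned no member's direction, which the selection fixes, since members were chosen past a log2 difference of 1 and both scalings shift it by less. The upper-quartile scaling moved the median log2 difference of all contigs of at least 3 FPKM by 0.29, and 26 of 34 lower members and all 31 higher ones were then still past a difference of 1.

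The 22 clusters with members in both directions were ordered by the smaller of 2 levels, the primordium FPKM of their most abundant higher member and the mycelium FPKM of their most abundant lower member. The first was CL2706, which had 2 contigs. CL2706.Contig1 (3324 nt) stood at 118 FPKM in mycelium, 398 in primordium, 382 in young and 383 in mature fruit bodies, 3.38-fold higher in primordium than in mycelium (3.29 to 3.48). CL2706.Contig2 (1687 nt) had 29.3, 11.4, 9.55 and 15.5 FPKM in the same order of stages, 2.58-fold lower in primordium (2.25 to 2.96). Contig1 was the more abundant of the pair in every library, and its 3 fruiting values lay within a narrow band.

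In CL3798 the order of the contigs was exchanged. CL3798.Contig11 (4313 nt) had 12.4 FPKM in mycelium, 46.4 in primordium, 56.9 in young and 46.8 in mature fruit bodies. CL3798.Contig12 (645 nt) had 21.5, 2.58, 1.51 and 1.38 FPKM, and CL3798.Contig9 (943 nt) had 7.30, 0.705, 0.826 and 0.270 FPKM. Contig12 was thus the most abundant contig of this cluster of 13 in mycelium, and Contig11 was so in each fruiting library. Primordium was 3.73-fold above mycelium for Contig11 (3.45 to 4.03), and below it 8.37-fold for Contig12 (5.52 to 13.2) and 10.4-fold for Contig9 (5.42 to 22.2).

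CL2052 held 1 abundant higher member and 2 scarce lower ones. Its Contig1 (2323 nt) had 112 FPKM in mycelium, 227 in primordium, 214 in young and 208 in mature fruit bodies. This contig lay closest to the limit of selection, at 2.03-fold (1.95 to 2.11). Contig2 (634 nt) had 15.0, 3.04, 2.05 and 1.21 FPKM by stage, and Contig3 (706 nt) had 11.6, 3.58, 3.22 and 2.71 FPKM. The lower contigs both had their lowest value in mature fruit body.

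CL1268 had 30 contigs, 28 of them under 3 FPKM in primordium and in mycelium. CL1268.Contig10 (6982 nt) had 7.79 FPKM in mycelium, 19.1 in primordium, 29.04 in young and 29.3 in mature fruit bodies. CL1268.Contig18 (4827 nt) had 14.7, 3.04, 4.45 and 6.71 FPKM. Both contigs were higher in each later fruiting library than in primordium, and Contig18 remained below its mycelium level. These values rest on many fragments, at least 845 for Contig10 and at least 221 for Contig18 in any library.

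CL1175 showed opposition beside a contig that differed little. CL1175.Contig3 (632 nt) had 8.04 FPKM in mycelium, 17.7 in primordium, 21.5 in young and 16.7 in mature fruit bodies. CL1175.Contig2 (2420 nt) had 9.44, 1.89, 3.22 and 3.56 FPKM. The third contig, CL1175.Contig1 (2365 nt), is no member and had 17.5, 20.9, 25.9 and 22.2 FPKM. It was the most abundant contig of the cluster in all 4 libraries, and it was close in length to Contig2 but unlike it in its values.

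In CL1414 the lower contig kept the higher level. CL1414.Contig5 (5314 nt) had 34.3 FPKM in mycelium, 8.90 in primordium, 9.81 in young and 12.4 in mature fruit bodies. CL1414.Contig1 (436 nt) had 3.25, 8.08, 7.15 and 8.33 FPKM, from 22 fragments in mycelium and 53 in primordium. The contigs were at close levels in primordium, after a difference of over 10-fold in mycelium.

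CL6262 held the highest value of any member. CL6262.Contig3 (2431 nt) had 80.4 FPKM in mycelium, 325 in primordium, 510 in young and 533 in mature fruit bodies. CL6262.Contig2 (847 nt) had 7.98, 3.14, 3.37 and 3.24 FPKM. The first was 4.04-fold higher in primordium than in mycelium (3.89 to 4.21), and the second was 2.54-fold lower (1.75 to 3.76).

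The remaining 3 of the first 10 clusters were less abundant, and the order of their contigs was exchanged between mycelium and primordium. CL2903.Contig2 (1329 nt) had 2.23 FPKM in mycelium, 6.95 in primordium, 6.35 in young and 6.19 in mature fruit bodies, and CL2903.Contig1 (372 nt) had 11.2, 0.714, 1.75 and 1.37 FPKM, the primordium value resting on 4 fragments. CL1202.Contig2 (415 nt) had 0.930, 7.85, 8.92 and 12.0 FPKM, and CL1202.Contig3 (2251 nt) had 6.57, 2.27, 3.0 and 4.44 FPKM. Each contig of CL1202 was higher at each later fruiting stage than at the one before. CL3922.Contig1 (1346 nt) had 0.430, 6.17, 3.76 and 3.36 FPKM, 14.3-fold higher in primordium than in mycelium (7.32 to 32.1, from 9 fragments in mycelium). CL3922.Contig2 (2994 nt) had 7.59, 2.04, 2.30 and 2.30 FPKM.

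**Figure D2:**
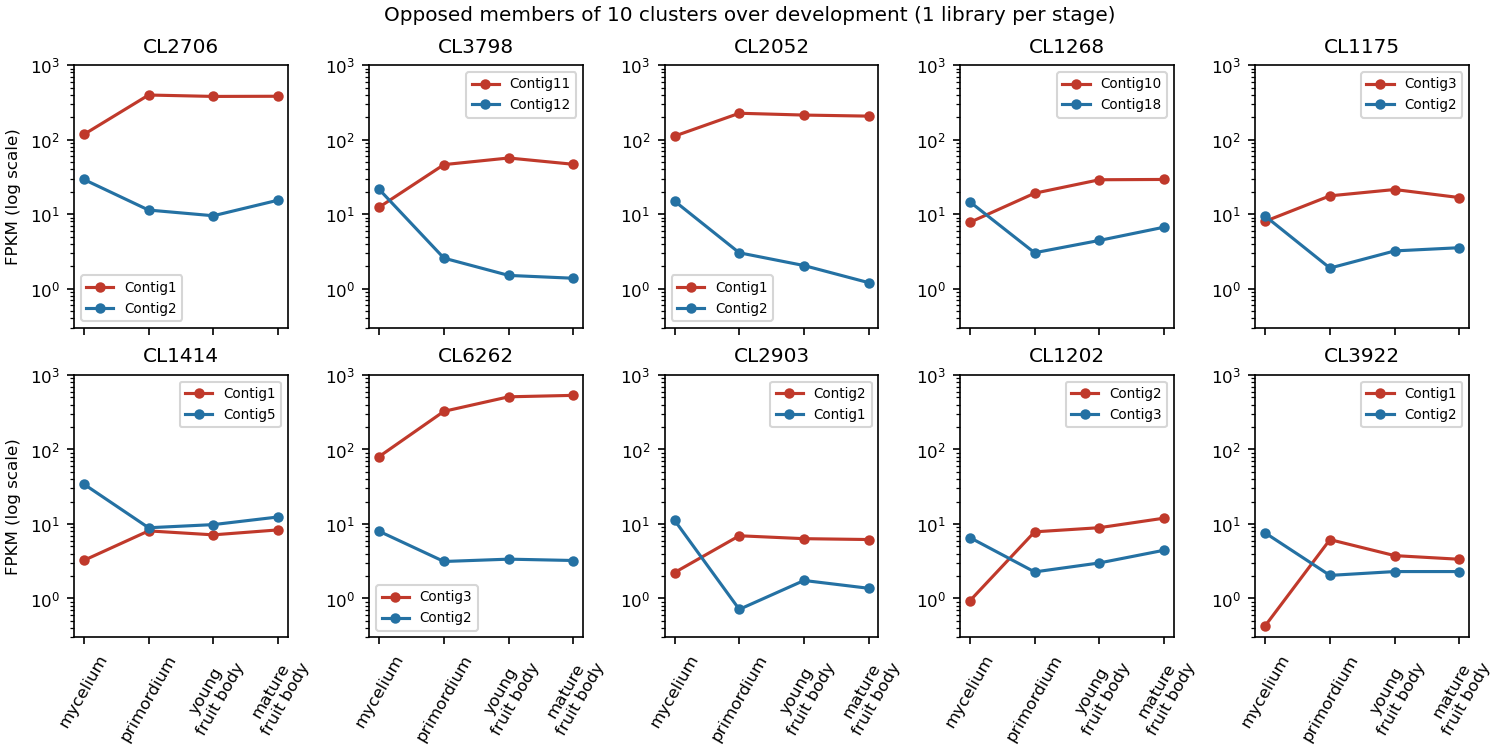
FPKM (vertical axis, log scale) by stage for the most abundant higher member (red) and lower member (blue) of the first 10 clusters, with 1 library per stage and no error bars. The lines cross between mycelium and primordium in CL3798, CL1268, CL1175, CL2903, CL1202 and CL3922, and do not cross in CL2706, CL2052, CL6262 and CL1414.

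The clusters with the most members were CL606, with 4, and CL361, CL2052 and CL3798, with 3 each. CL2052 and CL3798 are described above. In CL606, of 41 contigs, 3 members were higher and 1 was lower. CL606.Contig34 (7325 nt) had 1.96 FPKM in mycelium, 11.6 in primordium, 12.7 in young and 14.04 in mature fruit bodies. CL606.Contig17 (4208 nt) had 0.963, 4.96, 5.60 and 5.44 FPKM, and CL606.Contig14 (3333 nt) had 1.49, 4.15, 5.30 and 4.80 FPKM. The lower member, CL606.Contig41 (389 nt), had 4.80, 0.854, 0.167 and 0.983 FPKM from 29, 5, 1 and 6 fragments. The higher members of this cluster were long and the lower one was short, with few fragments in every library. In CL361, of 31 contigs, the higher members Contig28 (2630 nt) and Contig1 (2404 nt) had 3.92 and 3.07 FPKM in primordium, against 0.514 and 0.696 in mycelium. The lower member Contig27 (867 nt) had 1.84 FPKM in primordium, against 5.12 in mycelium.

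The level of the most abundant higher member relative to that of the most abundant lower member was followed through the stages in the 22 clusters. This ratio is taken within a library and does not depend on scaling between libraries. Its median was 0.469 in mycelium, 7.90 in primordium, 6.60 in young and 4.87 in mature fruit bodies. Between mycelium and primordium the ratio shifted toward the higher member by a median of 16.9 times, from 6.32 to 71.1 times over the clusters, a shift whose direction the selection fixes. In 12 clusters the order was exchanged between these stages, in 8 the higher member was already the more abundant in mycelium, and in 2 the lower member remained the more abundant in primordium. Those were CL1414 and, named after its values were seen, CL4662. In young fruit body, which was not used in the choice, the higher member was the more abundant in 20 of 22 clusters. The number was 20 in primordium and mature fruit body as well, against 8 in mycelium. The selection uses the primordium level and limits mature fruit body around it. Few contigs of other clusters under the same limits moved far from primordium in young fruit body. The primordium order therefore largely carries over, and the count in young fruit body adds little to it.

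**Figure D3:**
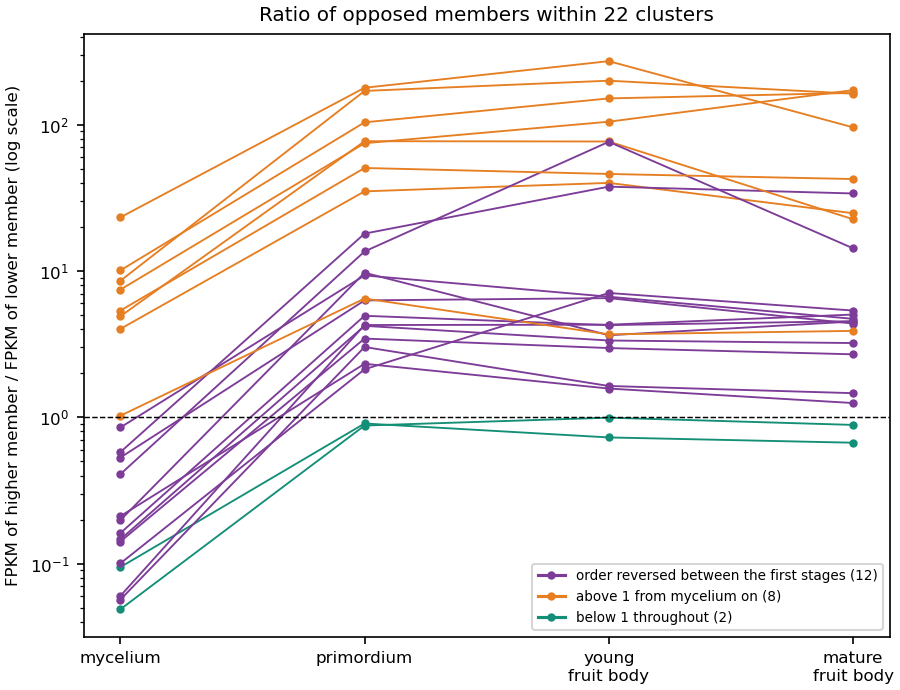
Ratio of the FPKM of the higher member to that of the lower member (vertical axis, log scale) by stage in the 22 clusters with members of both directions, 1 line per cluster. Of the lines, 12 pass from below to above 1 between mycelium and primordium, 8 are above 1 in all libraries and 2 are below 1 in all.

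The young fruit body library gave a reading of the members outside their selection. A log2 difference from primordium of less than 1 was found for 64 of the 65 members, 30 of 31 higher and 34 of 34 lower ones. Contigs of other clusters that met the same limits on the other libraries were past that difference in 1.82% of cases where higher in primordium (11 of 603) and in 0.927% where lower (11 of 1186). The share of the members is near this background. Between young and mature fruit body, 64 of the 65 members were less than a log2 difference of 1 apart, and 1.62% of the other contigs (29 of 1789) were not. The limit on mature fruit body also narrows what young fruit body can be, for members and for the other contigs alike.

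The median log2 difference of young fruit body minus primordium was 0.15 for higher members, from -0.59 to 1.37, and 0.07 for lower members, from -0.70 to 0.82. It was 0.01 and 0.00014 for the higher and lower contigs of other clusters. Young fruit body was within 1.5-fold of primordium, on the same scale, for 28 of 31 higher members (90.3%) and 26 of 34 lower members (76.5%), against 92.0% and 90.1% in the other clusters. No test was made of these differences. Of the lower members past 1.5-fold, CL2903.Contig1 rested on 4 fragments in primordium, CL606.Contig41 on 5 and CL42.Contig3 on 8. CL4699.Contig3 had 16, CL2598.Contig2 18 and CL361.Contig27 24, while CL1896.Contig6 had 98 and CL1343.Contig3 223. In both sets some members were higher and some lower than in primordium, 17 and 14 of the higher members and 20 and 14 of the lower ones. Compared with mycelium, young fruit body kept the direction of selection for all 65 members, and 27 higher and 29 lower members were past a log2 difference of 1. This comparison shares the mycelium library with the selection.

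By the size of the difference in log2(FPKM + 1), which weights ratios of scarce contigs less, the member that differed most between young fruit body and primordium was CL2431.Contig5 (1363 nt), at 1.18 FPKM in mycelium, 4.34 in primordium, 12.8 in young and 8.65 in mature fruit bodies. It was 2.95-fold higher in young fruit body than in primordium (2.32 to 3.80). Next among the higher members on this scale came CL6262.Contig3, 1.57-fold higher (1.53 to 1.60), and CL3922.Contig1, at 0.610 of its primordium level (0.454 to 0.815). Among the lower members, CL1896.Contig6 (1902 nt) came first on this scale, with 18.03, 3.42, 6.83 and 5.33 FPKM by stage and 1.99-fold more in young fruit body than in primordium (1.56 to 2.57). CL42.Contig3 (371 nt) had 13.9, 1.43, 3.15 and 1.03 FPKM, with a young fruit body to primordium ratio of 2.20 whose interval (0.910 to 5.84) held equality. CL1343.Contig3 (2769 nt) had 35.4, 5.35, 2.91 and 2.37 FPKM, and was at 0.543 of its primordium level in young fruit body (0.433 to 0.680).

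**Figure D4:**
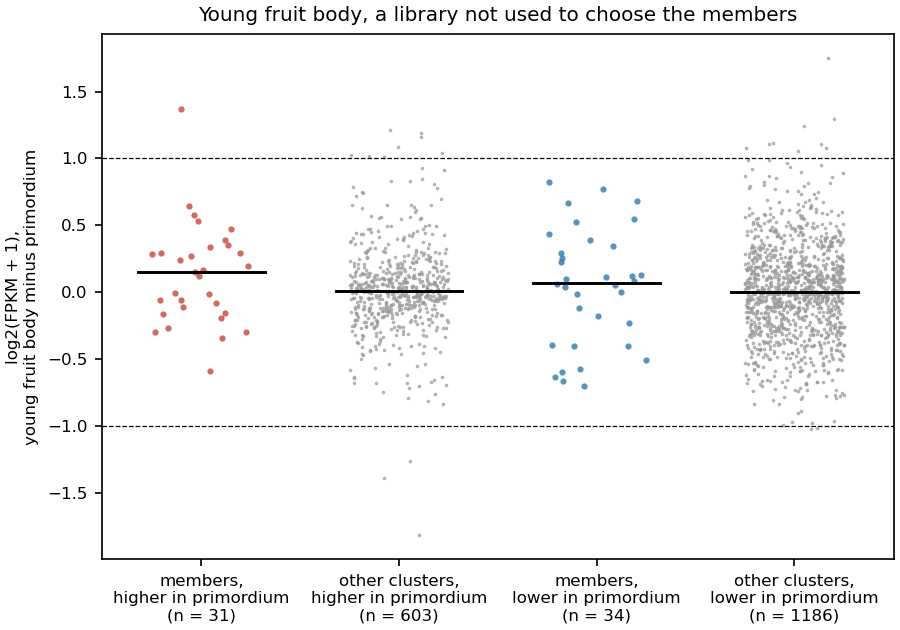
Young fruit body minus primordium in log2(FPKM + 1) (vertical axis) for the 31 higher and 34 lower members (coloured) and for the 603 and 1186 contigs of other clusters within the same limits (grey); black bars are medians, dashed lines a difference of 1, and horizontal spread within a set only separates points. All but 1 member lie between the dashed lines, as do over 98% of the grey points in each set.

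Contigs were then summed over each opposed cluster. Since the selection requires contigs in both directions in the same libraries, a sum that differs less than its contigs do is built in. The log2 difference of summed FPKM, again with 1 added, was below 1 in size in 20 of the 37 clusters (54.1%). It was at least 1 toward primordium in 14 and toward mycelium in 3. Among the other 1948 clusters, 37.9% had a summed difference of at least 1, with 287 higher (14.7%) and 452 lower (23.2%) in primordium. The median size of the summed difference was 0.92 for opposed clusters and 0.72 for the others. The sets are unlike, since every opposed cluster has at least 2 contigs past a log2 difference of 1. Only 559 of the other 1948 clusters did. Under upper-quartile scaling the 37 clusters divided into 19 within the difference, 18 higher and 0 lower.

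The smallest summed differences among clusters with members of both directions were those of CL3922 and CL630. CL3922 had 8.21 FPKM in primordium, against 8.02 FPKM in mycelium, although its contigs differed 14.3-fold and 3.72-fold in opposite directions. CL630 had 12.4 FPKM in primordium, against 12.8 FPKM in mycelium, with CL630.Contig16 (1354 nt) at 4.12 against 0.618 FPKM and CL630.Contig22 (7001 nt) at 0.978 against 4.22 FPKM. Among clusters with members of both directions, the largest summed difference was that of CL1383, at 242 FPKM in primordium against 26.3 in mycelium. CL6262 came next among them, at 330 against 91.02 FPKM. In CL1383, 5 contigs were higher past a log2 difference of 1, and Contig1 (1190 nt) was lower past it, at 1.12 FPKM in primordium against 11.2 in mycelium.

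Sums of FPKM weight contigs of all lengths equally, and sums of fragments weight long contigs more. By fragments as a share of the library, 18 of the 37 clusters were within a log2 difference of 1, 16 were higher and 3 were lower in primordium, but only 29 clusters fell in the same class by both sums. CL3922 then had a log2 difference of -0.69 against 0.03 by FPKM, CL630 of -0.57 against -0.03, CL1202 of -0.87 against 0.16, and CL2903 of 0.41 against -0.74. CL606 (1.46 against 0.71), CL3798 (1.09 against 0.27) and CL1414 (-1.68 against -0.92) passed a difference of 1 by fragments alone. Whether the total of these clusters was near balance thus differed between the measures.

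The excess of the higher contigs in primordium over mycelium and the deficit of the lower contigs were within 2-fold of each other, in FPKM, in 13 of 37 clusters. The excess was more than 2 times the deficit in 17, and the deficit more than 2 times the excess in 7. Over all opposed clusters the higher contigs had 1943 FPKM more in primordium than in mycelium, and the lower contigs 525 FPKM less. The selection fixes both signs, and a few clusters weigh heavily in the totals. CL2706 had 281 FPKM of the excess, CL6262 245, CL1383 228 and CL4307 222, and CL5979 had 113 FPKM of the deficit.

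**Figure D5:**
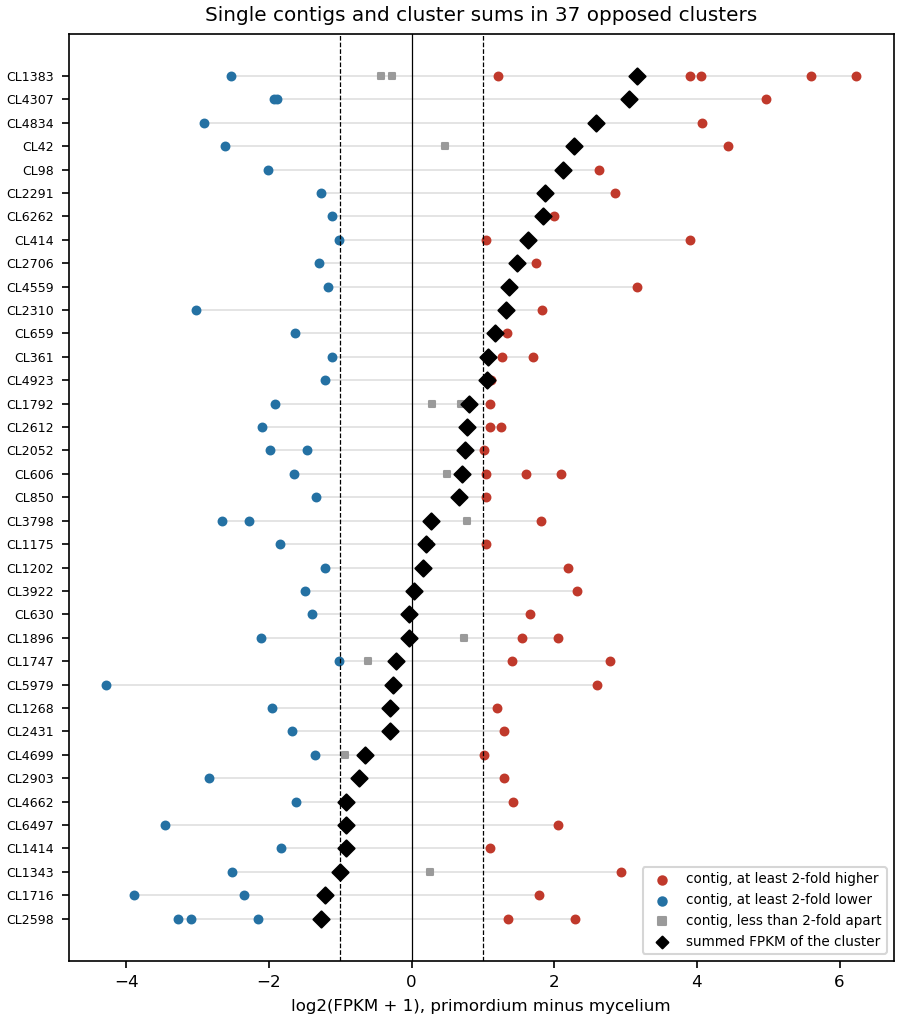
Primordium minus mycelium in log2(FPKM + 1) (horizontal axis) for each contig of at least 3 FPKM (circles and squares) and for the summed FPKM (diamonds) of each of the 37 opposed clusters (rows); dashed lines mark a difference of 1. Sums lie between the dashed lines in 20 clusters, to the right in 14 and to the left in 3.

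The most abundant contig of an opposed cluster usually differed between mycelium and the fruiting stages. The most abundant contig was not the same in primordium and in mycelium in 24 of 37 opposed clusters (64.9%), and in 21.9% of the other clusters (427 of 1948). The selection favours such an exchange. Between primordium and young fruit body the same contig led in 35 of 37 opposed clusters (94.6%) and in 88.5% of the others, and between young and mature fruit body in 33 (89.2%) and in 89.2%. Contigs higher in primordium held a median of 17.9% of the cluster's FPKM in mycelium, 74.8% in primordium, 77.8% in young and 68.3% in mature fruit bodies. Contigs lower in primordium held 44.5%, 3.99%, 5.11% and 8.36% in the same order. The higher contigs held more than 50% of the FPKM in 9 clusters in mycelium, in 26 in primordium and young fruit body each, and in 25 in mature fruit body. The selection also favours these shifts of share between mycelium and primordium, so they are a description.

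Length was not used in the choice of members. The recovered length had a median of 2035 nt (415 to 8839) for higher members and 1190.5 nt (229 to 7001) for lower members. Contigs of other clusters within the same limits had medians of 1720 nt where higher and 1581 nt where lower. Within the 22 clusters with both, the most abundant higher member was the longer in 14 and the lower member in 8. The median of the signed difference, higher minus lower member, was 1270.5 nt. In 16 of these clusters the lengths differed at least 2-fold. FPKM divides by length, but shorter contigs have fewer fragments at a given FPKM, and in their scarcer library the lower members rested on a median of 28.5 fragments and the higher members on 79.

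Values on either side of the limits show where the selection fell. The nearest contigs at the lower limit were CL2052.Contig1 (1.01) inside and CL3798.Contig6 (0.78) outside among the higher, and CL1747.Contig2 (-1.02) inside and CL4699.Contig4 (-0.93) outside among the lower. At the upper limit the nearest lower contigs were CL4834.Contig1 (-2.91), a member, and CL2310.Contig2 (-3.03). The nearest higher contigs at that limit were CL1343.Contig4 (2.93), which was outside the limit on mature fruit body, and CL4559.Contig2 (3.16). On that limit the nearest contigs were CL4923.Contig2, a member, with a log2 difference of 0.95 in size, and CL2431.Contig1, with 1.16.

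The 27 contigs of opposed clusters left out by the limits comprised 18 higher and 9 lower ones. The size of the difference alone left out 12, the limit on mature fruit body alone another 12, and both limits 3. The largest differences were those of CL1383.Contig5 (215 nt), at 0.299 FPKM in mycelium, 96.7 in primordium, 128 in young and 76.8 in mature fruit bodies. Its ratio of primordium to mycelium was 323 (57.6 to 12808), from 1 fragment in mycelium. CL1383.Contig6 (358 nt) had 0.360, 65.0, 84.3 and 50.4 FPKM, and CL4307.Contig3 (1498 nt) had 6.36, 228, 193 and 208 FPKM. In CL4307 the other 2 contigs were both lower members, so its higher contig was outside the limits while its lower contigs were within them.

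On the lower side, CL5979.Contig2 (1548 nt) had 118 FPKM in mycelium, 5.11 in primordium, 7.68 in young and 10.1 in mature fruit bodies. Its cluster's only other contig, CL5979.Contig1, was a higher member that was 6.38-fold above mycelium in primordium (5.77 to 7.06). The sum of both was 112 FPKM in primordium, against 134 FPKM in mycelium. CL1716.Contig3 (2491 nt) had 25.6, 0.800, 1.02 and 0.998 FPKM by stage, and CL6497.Contig5 (2573 nt) had 26.0, 1.45, 1.87 and 1.86 FPKM. CL6497 was the opposed cluster without a member, since its higher contig was outside the limit on mature fruit body and its lower contig outside the upper limit on the difference.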

How the data were processed

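RNA sequencing of 4 stages, 1 library each, was analysed from the table of FPKM that the authors deposited, with 4 decimals and, per the file headers, 1 FPKM column per stage. The assembler, aligner, counting tool and filters were not given in the sources used here. Columns were assigned by the short stage names in the sample descriptions. The identifiers' common suffix was dropped.

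Members were found with a pseudocount of 1. They and all lists were chosen with earlier results of these data known. Whole fragments and lengths were recovered from the steps of the FPKM. The shortest length of at least 200 nt giving whole fragments in all libraries was taken, with a tolerance of about the rounding of 5e-05 FPKM. All 50567 sequences above 0 had such a length. Lengths and fragments that share a common factor are understated by it. Recovery and selection were tested on simulated data. The changes planted there were in abundant contigs only, so the finding of changes in scarce contigs was not covered. Sharing of fragments between contigs was not simulated. Intervals of folds are exact conditional binomial (Clopper-Pearson), 95%. Python 3.11.15, numpy 2.4.6, pandas 2.3.3 and scipy 1.17.1 were used.

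Named were the first 10 clusters by the smaller level and the 3 with most members, ties going to the lower cluster number. The 2 smallest and 2 largest summed differences were named among clusters with members of both directions. Also named were the 3 members of each direction with the largest difference between young fruit body and primordium. The contigs nearest the limits and the 3 largest differences of each direction left out were named too. Alternatives were other pseudocounts, minimums, scalings, thresholds, sums and lengths, and a counting interval.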

Additional observations from a re-analysis of the deposited data

How the results depend on the processing

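The number of opposed clusters depends on the settings of the selection, most of all on how low values are treated. In the order opposed clusters, higher members, lower members, clusters with both directions, clusters with a sum within 2-fold, clusters whose leading contig differed, members near primordium in young fruit body and members near mature fruit body in young fruit body, the values were 37, 31, 34, 22, 20, 24, 64 and 64 as reported. A pseudocount of 5 gave 11, 6, 14, 4, 4, 9, 20 and 20. A minimum of 10 FPKM gave 11, 6, 10, 4, 6, 7, 16 and 15. A log2 difference of 1.5 gave 14, 7, 12, 3, 5, 13, 19 and 18. These settings admit fewer contigs by construction. With no minimum there were 58 higher and 54 lower members, of which 111 were near primordium and 110 near mature fruit body in young fruit body. The other counts with no minimum, and all counts with a pseudocount of 0.1, with median-of-ratios scaling, with upper-quartile scaling and with a counting interval that excludes equality, stayed within 1.5 times the reported values. The clusters were not all the same: upper-quartile scaling gave 47 opposed clusters, 29 of them among the reported 37, and 91 members, 49 of them among the reported 65. The counting interval kept all 37 clusters and 65 members, on the same contrast that chose them. The median share of a cluster's FPKM in its higher contigs in young fruit body, 77.8% as reported, was 64.1% with a pseudocount of 0.1, 91.6% with one of 5, 91.6% with a minimum of 10 FPKM, 71.7% with none, 75.6% with median-of-ratios scaling, 62.1% at the upper quartile and 59.6% with a log2 difference of 1.5. The share of a given contig in its cluster within a library is the same under all these settings. The median thus differs because other clusters and contigs were counted. Of 42 recalculated sums of named clusters, 35 kept their sign, and no sum past a log2 difference of 1 changed sign. The lengths were at least 300 nt in all 22 pairs, so that alternative changed nothing. No paired analysis was possible because there was 1 library for every stage. Without replicates, differences between stages cannot be told apart from differences between libraries.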
